A study of Homo sapiens with 15 samples.

Results

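The genes described here encode the desmosome and its plakin linkers: DSP, DSG2, DSC2, PKP2, PKP3, JUP, PERP, PPL, EVPL and EPPK1. They were chosen by name, and all 10 were found by symbol among the 16604 genes of the deposited table. Expression was measured by polyA-captured RNA sequencing in 15 samples, 3 replicates of each of 5 human lines. Ovcar4Parental is OVCAR4, a cell line of high-grade serous ovarian cancer (HGSC), labelled sensitive to both carboplatin and cisplatin. Ov4Cis was derived from it by culture in rising cisplatin and is labelled cisplatin resistant. Ov4Carbo was derived by culture in rising carboplatin, and Ov4Carbo4 and Ov4Carbo7 were each grown from a single Ov4Carbo cell; all 3 are labelled carboplatin resistant. Every line thus descends from 1 parental line, both selected populations come from 1 selection each, and both single-cell lines are 1 clone each. All were grown in DMEM with serum.

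Desmosomes are button-like junctions that tie the keratin filaments of neighbouring epithelial cells together. Desmosomal cadherins (desmogleins and desmocollins) meet in the gap between the cells. Inside, armadillo proteins (plakoglobin and the plakophilins) hold their tails, and plakins carry the link on to the filaments. Periplakin, envoplakin and epiplakin are relatives of desmoplakin best known from stratified and glandular epithelia. Epithelial cancer cells often lose parts of this junction when they take on mesenchymal features.

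The values are log2 RPKM, a measure in which reads are divided by gene length and by the size of the library. They were further corrected for GC content and length by cqn, so levels of different genes are compared only on that corrected scale. A gene is said to have risen or fallen when its limma p was under 0.05 after Benjamini-Hochberg adjustment across the whole table and its log2 fold change was at least 1 in size. The median was 2.77 in every sample, and the read depth is unknown. Replicates of Ov4Carbo were the least alike over all genes, with a mean root-mean-square difference of 0.69 log2 units against 0.34 to 0.48 in the other lines, and replicate 1 lay nearest to Ov4Carbo7, at 0.89 against 1.13 and 1.07 for the other two. Over the 10 genes described here replicate 1 was the farthest from Ov4Carbo7, at 1.22 against 1.16 and 1.12. The titles carry numbers in a low and a high series, and replicate 1 of Ov4Carbo shares the low series with the single-cell lines, while the parental line, Ov4Cis and the other Ov4Carbo samples share the high one. Ov4Cis against the parental line and Ov4Carbo7 against Ov4Carbo4 are comparisons within a series; in a single-cell line against the parental line, series and line cannot be told apart except through Ov4Carbo. The defining epithelial markers (EPCAM, CDH1, KRT7, KRT8, KRT18 and KRT19, 6 of 6 in the table) summed to 736 to 884 RPKM in the parental line and to 96.2 to 121 in Ov4Cis. The sums were 317 to 376 in Ov4Carbo, 254 to 331 in Ov4Carbo4 and 222 to 242 in Ov4Carbo7. In bulk RNA, fewer cells of a type and less RNA per cell cannot be told apart. Müllerian and serous markers (6 of 7) summed to between 282 and 526 RPKM in every line, most of it from SOX17, MECOM and PAX8. Others of that list differed between lines: MUC16 had a mean of 4.60 log2 RPKM in the parental line, -1.73 in Ov4Cis and -0.21 in Ov4Carbo7, and WFDC2 had 4.95, 3.31 and 2.43, while the mean of WT1 was -1.52 or lower in every line. Of other cell types, leukocyte markers (2 of 5) summed to at most 1.96 RPKM and fibroblast markers (4 of 7) to at most 14.6. Endothelial markers (3 of 4) summed to 32.3 to 40.9 in Ov4Cis and 20.7 to 25.2 in Ov4Carbo4, against 4.27 to 10.3 elsewhere, nearly all from CDH5. Mesothelial markers (2 of 3) ran from 13.1 in Ov4Carbo4 to 93.6 in the parental line. Keratinocyte markers (2 of 5) ran from 19.6 to 40, nearly all from KRT10, as the mean of KRT5 was -0.79 log2 RPKM or lower in every line. The part of these differences in the results that follow was not tested.

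Upstream sequences are shown because the members split into those that fell in Ov4Cis and those that did not, and DSP, JUP and DSG2 represent both sides. The 250 bases before the annotated start come from RefSeq (GRCh38.p14), 5′ to 3′ on the strand of the gene, and capitals mark the E-box CAGGTG read on either strand, a motif that repressors of epithelial genes such as ZEB1 and SNAI1 can bind. RefSeq windows were matched for 5 of the 10 members, DSP, DSG2, DSC2, JUP and PERP. DSP lies on chromosome 6 (chr6:7541421-7541670, plus strand), JUP on chromosome 17 (chr17:41786712-41786961, minus strand, the more upstream of its windows) and DSG2 on chromosome 18 (chr18:31497927-31498176, plus strand).
DSP: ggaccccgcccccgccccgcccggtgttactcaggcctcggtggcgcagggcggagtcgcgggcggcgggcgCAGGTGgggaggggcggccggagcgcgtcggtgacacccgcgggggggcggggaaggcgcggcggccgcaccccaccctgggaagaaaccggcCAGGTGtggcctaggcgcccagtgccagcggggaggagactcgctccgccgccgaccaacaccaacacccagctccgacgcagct
JUP: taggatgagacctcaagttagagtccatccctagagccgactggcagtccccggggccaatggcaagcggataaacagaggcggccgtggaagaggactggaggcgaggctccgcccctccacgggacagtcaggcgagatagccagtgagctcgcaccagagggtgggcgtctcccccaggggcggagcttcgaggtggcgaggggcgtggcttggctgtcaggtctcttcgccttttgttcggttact
DSG2: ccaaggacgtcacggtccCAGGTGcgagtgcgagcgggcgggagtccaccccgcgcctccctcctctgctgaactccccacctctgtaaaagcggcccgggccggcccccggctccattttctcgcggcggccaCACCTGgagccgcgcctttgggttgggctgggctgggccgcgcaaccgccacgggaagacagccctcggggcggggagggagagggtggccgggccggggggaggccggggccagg
The DSP window held 2 such motifs, 178 and 85 bases before the start, and the DSG2 window also held 2, at 232 and 116 bases. The JUP window shown held 0, and the second JUP window, nearer the gene body, held 2. Over all 35116 windows of this length, 17.5% held the motif on either strand. The grainyhead core ACCGGT, present in 1.45% of windows, was in none of the 7 windows of the 5 members. The AP-1 motif TGACTCA, present in 4.2%, occurred once, in the PERP window 101 bases before the start. The GC box GGGCGG, present in 42.6%, occurred 7 times in DSP, 5 times in PERP and 2 times each in DSG2 and the JUP window shown. The E-box occurred in the window of a gene that fell in Ov4Cis (DSP) and of one that did not (DSG2). Of the other genes that did not fall there, a DSC2 window held 1 E-box and the PERP window 0. Binding was not tested.

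In Ov4Cis, 6 of the 10 genes fell against the parental line and 0 rose, while 7.41% of all genes fell and 8.46% rose. The 6 were the linker DSP, the armadillo genes PKP3 and JUP, and the plakins PPL, EVPL and EPPK1. The cadherins DSG2 and DSC2, the plakophilin PKP2 and the tetraspan protein gene PERP were not among them. The median log2 fold change of the 10 was -2.45, against 0.04 over all genes. Fewer members were called in the carboplatin lines: 3 fell and 0 rose in Ov4Carbo (background 6.93% lower and 5.76% higher), 2 fell and 1 rose in Ov4Carbo4 (7.7% and 7.43%), and 4 fell and 0 rose in Ov4Carbo7 (7.75% and 9.26%). Their medians were -0.69, -0.25 and -0.85, against 0.03, 0.07 and 0.02 over all genes. EPPK1 fell in all 4 lines, which share the parental samples as their control. The 3 values of the derived line did not overlap the parental ones for 7 members in Ov4Cis (53.4% of all genes), 6 in Ov4Carbo (38.4%), 8 in Ov4Carbo4 (58.1%) and 10 in Ov4Carbo7 (56.5%). Without replicate 1 of Ov4Carbo, PERP joined the genes that fell there, and without replicate 3 PKP3 did, making 4 in each case. Each of the 10 members differed among the 5 lines by the limma F-test, with adjusted p between 4.53e-09 for PKP3 and 0.00421 for PKP2, as did 76.9% of all genes.

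**Figure D1:**
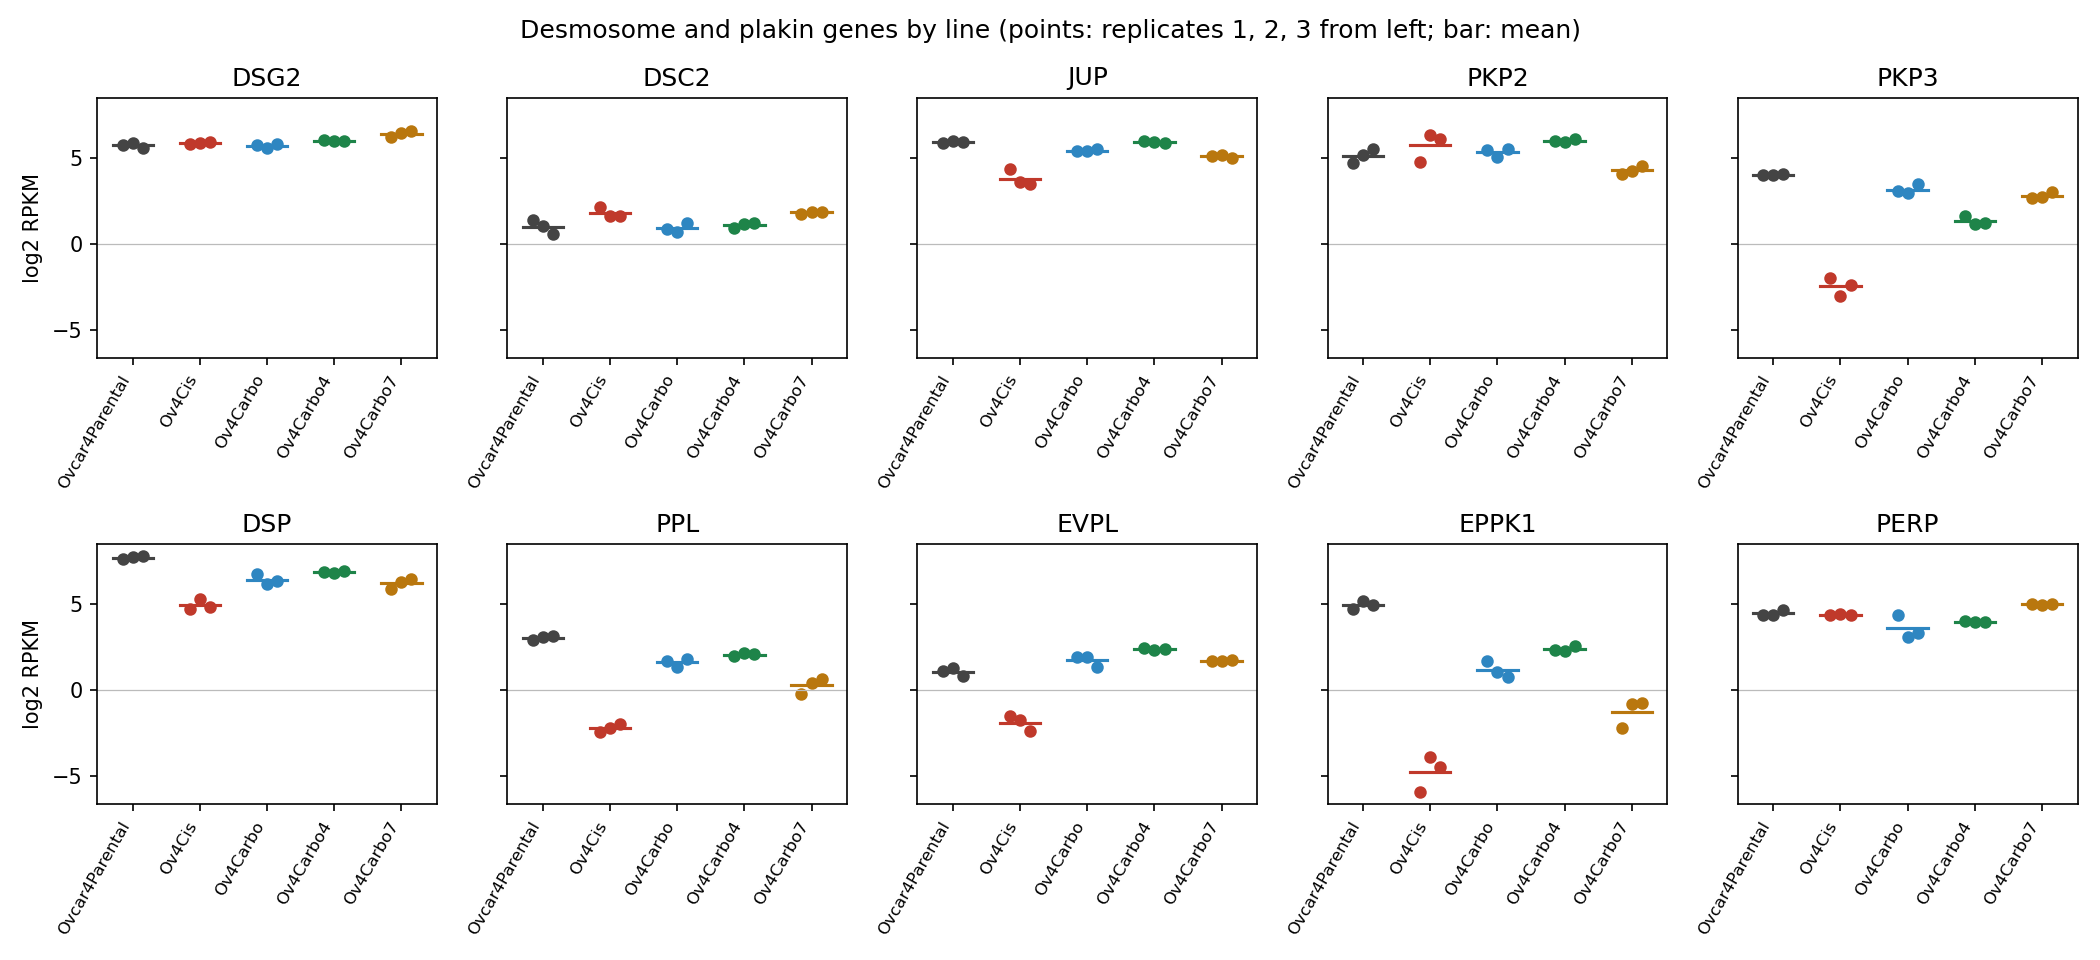
Log2 RPKM (vertical axis, the same in all panels) of each gene in each of the 15 samples, by line. Points are replicates 1 to 3 from left to right and bars are line means. DSG2 stays between 5.53 and 6.55 in all samples, whereas EPPK1 runs from 5.15 in the parental line to -5.94 in Ov4Cis.

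**Figure D2:**
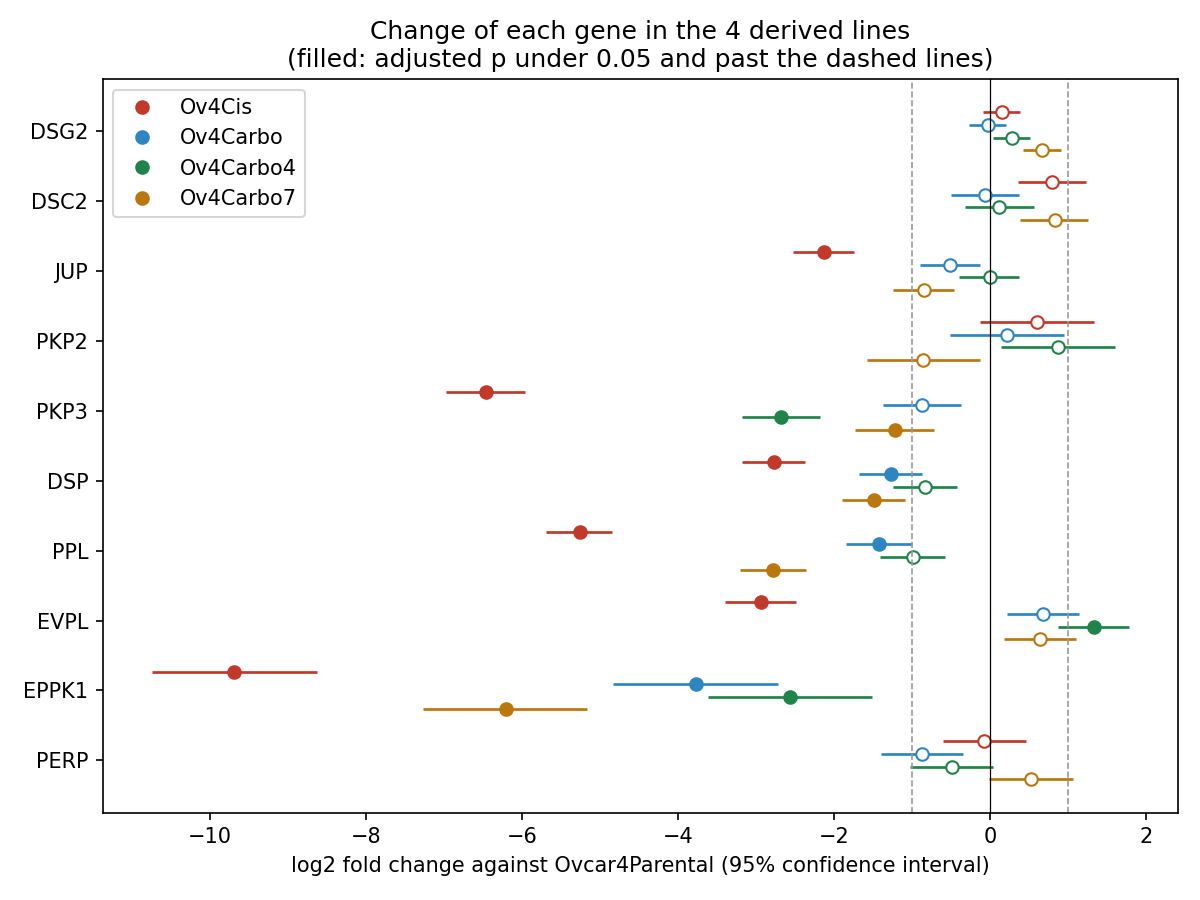
Log2 fold change against the parental line (horizontal axis) with its 95% confidence interval for each gene in the 4 derived lines. Filled points passed both thresholds and dashed lines mark a change of 1. The 6 filled red points of Ov4Cis all lie to the left, and the only filled point to the right is EVPL in Ov4Carbo4.

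The desmosomal cadherins came first in the order from the cell surface inwards. DSG2 (ENSG00000046604, chromosome 18), desmoglein 2, is the desmoglein of simple epithelia. Its parental values were 5.70, 5.83 and 5.58 log2 RPKM in replicates 1 to 3, and those of Ov4Cis were 5.81, 5.87 and 5.90. It stood at 5.70, 5.53 and 5.79 in Ov4Carbo, at 6.01, 5.96 and 5.98 in Ov4Carbo4 and at 6.17, 6.4 and 6.55 in Ov4Carbo7. The Ov4Carbo7 values were above those of every other line, and Ov4Cis overlapped the parental range only in part. The difference of Ov4Cis from the parental line was 0.15 (95% confidence interval -0.09 to 0.39, limma adjusted p = 0.310), and the interval excluded a fall past the fold threshold. Ov4Carbo7 was higher by 0.67 (SE 0.11, limma adjusted p = 4.09e-04), below the fold threshold. In order of level, Ov4Carbo7 was highest, and its step to Ov4Carbo4 passed the test (0.39, adjusted p = 0.0109). The steps from Ov4Carbo4 to Ov4Cis, the parental line and Ov4Carbo did not.

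DSC2 (ENSG00000134755, chromosome 18), desmocollin 2, was the least abundant member that no line lowered. Parental values were 1.36, 1.01 and 0.59 log2 RPKM, or a mean of 2.03 RPKM against 52.3 for DSG2. Ov4Cis had 2.13, 1.60 and 1.63, and Ov4Carbo7 had 1.75, 1.85 and 1.85, both entirely above the parental range. Ov4Carbo (0.86, 0.70 and 1.23) and Ov4Carbo4 (0.94, 1.16 and 1.22) overlapped it. The limma difference from the parental line was 0.80 (SE 0.20, adjusted p = 0.00782) in Ov4Cis and 0.83 (SE 0.20, adjusted p = 0.00558) in Ov4Carbo7, both under the fold threshold. Without parental replicate 1 the Ov4Carbo7 difference was 1.01 (adjusted p = 0.00198), past it. Neither cadherin therefore fell in any line. DSG2 was highest in Ov4Carbo7, and DSC2 was highest in Ov4Carbo7 and Ov4Cis, which did not differ by the test (adjusted p = 0.928).

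JUP (ENSG00000173801, chromosome 17) encodes plakoglobin, the armadillo protein that binds both desmosomal and classical cadherins. It was even in the parental line (5.86, 5.94 and 5.93 log2 RPKM) and in Ov4Carbo4 (5.95, 5.92 and 5.85), which overlapped. Ov4Cis had 4.34, 3.57 and 3.44, well below every other sample. Ov4Carbo (5.38, 5.36 and 5.48) and Ov4Carbo7 (5.11, 5.13 and 4.95) lay between, below the parental range and without overlap. JUP fell by 2.13 in Ov4Cis (SE 0.18, limma adjusted p = 1.52e-06). It was lower by less than the fold threshold in Ov4Carbo7, at -0.85 (SE 0.18, adjusted p = 0.00214), and in Ov4Carbo, at -0.51 (adjusted p = 0.0446, or 0.0753 without its replicate 1). In Ov4Carbo4 the difference was 0.00 with an interval of -0.39 to 0.38.

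The plakophilins, armadillo proteins that cluster desmosomal cadherins and recruit desmoplakin, went separate ways. PKP3 (ENSG00000184363, chromosome 11) had parental values of 3.99, 4.0 and 4.02 log2 RPKM, the tightest of any member in that line. In Ov4Cis it stood at -1.98, -3.04 and -2.37, or a mean of 0.19 RPKM against 16. Ov4Carbo had 3.04, 2.92 and 3.44, Ov4Carbo4 had 1.59, 1.16 and 1.21, and Ov4Carbo7 had 2.63, 2.71 and 2.99. All derived samples lay below the parental ones, and Ov4Carbo4 lay below both other carboplatin lines. The limma log2 fold change was -6.46 in Ov4Cis (SE 0.23, adjusted p = 1.07e-09), -2.68 in Ov4Carbo4 (SE 0.23, adjusted p = 2.81e-06) and -1.22 in Ov4Carbo7 (SE 0.23, adjusted p = 0.00106). Ov4Carbo differed by -0.87 (adjusted p = 0.0126), short of the fold threshold, and by -1.02 without its replicate 3. With a term for the title series the Ov4Carbo7 change was -1.09 (adjusted p = 0.0847) and did not pass. Since values near 0 RPKM depend on the authors' handling of few reads, the Ov4Cis change on the log2(RPKM + 1) scale is also given, -3.84.

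PKP2 (ENSG00000057294, chromosome 12), the plakophilin of simple epithelia and heart muscle, kept a high level in every line. Parental values were 4.71, 5.14 and 5.48 log2 RPKM. Ov4Carbo4 had 5.96, 5.89 and 6.09, all above the parental range, and Ov4Carbo7 had 4.04, 4.21 and 4.51, all below it. Ov4Carbo (5.42, 5.06 and 5.51) overlapped the parental line. Ov4Cis was uneven, at 4.74 in replicate 1 and 6.30 and 6.10 in the others. Its difference from the parental line was 0.60 (interval -0.13 to 1.33, limma adjusted p = 0.186), and without replicate 1 of Ov4Cis it was 1.09 (adjusted p = 0.00259), past both thresholds. Against the parental line, Ov4Carbo4 differed by 0.87 (adjusted p = 0.0556) and Ov4Carbo7 by -0.86 (adjusted p = 0.0562), neither of which passed. Both rested on single parental samples: Ov4Carbo4 passed without parental replicate 3 (1.06, adjusted p = 0.0452) and Ov4Carbo7 without parental replicate 1 (-1.06, adjusted p = 0.0393). No step between neighbouring lines in the order of PKP2 levels passed the test.

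DSP (ENSG00000096696, chromosome 6), desmoplakin, the obligate plakin that ties the plaque to keratin, was the most abundant member. Its parental mean of 206 RPKM lay above 99.3% of genes, with values of 7.59, 7.69 and 7.77 log2 RPKM. Ov4Cis had 4.67, 5.27 and 4.79, a mean of 30.5 RPKM. Ov4Carbo had 6.75, 6.15 and 6.32, Ov4Carbo4 had 6.85, 6.80 and 6.90, and Ov4Carbo7 had 5.88, 6.27 and 6.42. All derived samples lay under the parental ones, and Ov4Cis lay under all others, though it remained above 83.6% of genes. DSP fell by 2.77 in Ov4Cis (SE 0.19, limma adjusted p = 2.40e-07), by 1.49 in Ov4Carbo7 (adjusted p = 4.71e-05) and by 1.27 in Ov4Carbo (adjusted p = 3.00e-04). The Ov4Carbo4 difference was -0.83 (adjusted p = 0.00375), under the fold threshold, and with a term for the title series it was -1.35 (adjusted p = 0.00632), past it. The antisense gene DSP-AS1, which neighbours DSP, has a row of its own, and whether the counting used strand is not given in the sources used here. In order of level, the step from the parental line to Ov4Carbo4 and the step from Ov4Carbo7 to Ov4Cis passed the test, and the steps among the carboplatin lines did not.

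PPL (ENSG00000118898, chromosome 16), periplakin, and EVPL (ENSG00000167880, chromosome 17), envoplakin, are plakins that can pair with each other and sit at desmosomes and the cornified envelope of skin. PPL stood at 2.90, 3.08 and 3.15 log2 RPKM in the parental line and at -2.43, -2.23 and -2.00 in Ov4Cis. It had 1.70, 1.35 and 1.80 in Ov4Carbo, 1.95, 2.12 and 2.08 in Ov4Carbo4, and -0.22, 0.40 and 0.61 in Ov4Carbo7. No derived sample reached the parental range, and Ov4Carbo7 was the next lowest line after Ov4Cis, with no overlap. PPL fell by 5.26 in Ov4Cis (SE 0.19, limma adjusted p = 1.39e-09), by 2.78 in Ov4Carbo7 (adjusted p = 5.49e-07) and by 1.42 in Ov4Carbo (adjusted p = 1.72e-04). In Ov4Carbo4 it was lower by 0.99 (adjusted p = 0.00154), just short of the fold threshold, and the value lay between -1.06 and -0.94 when single replicates were left out. It passed without parental replicate 1 (-1.06), Ov4Carbo4 replicate 2 (-1.03) or Ov4Carbo4 replicate 3 (-1.01), and with a term for the title series (-1.12, adjusted p = 0.0387). On the log2(RPKM + 1) scale the Ov4Cis change was -2.93.

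EVPL did not follow PPL. Its parental values were 1.09, 1.25 and 0.83 log2 RPKM, and those of Ov4Cis were -1.53, -1.73 and -2.40. The carboplatin lines were all higher than the parental line, with 1.91, 1.94 and 1.35 in Ov4Carbo, 2.43, 2.33 and 2.38 in Ov4Carbo4, and 1.70, 1.66 and 1.72 in Ov4Carbo7. None of these 9 values overlapped the parental range. EVPL fell by 2.94 in Ov4Cis (SE 0.21, limma adjusted p = 3.82e-07) and rose by 1.33 in Ov4Carbo4 (SE 0.21, adjusted p = 3.40e-04). With a term for the title series the Ov4Carbo4 change was 1.06 (adjusted p = 0.0586). It was higher by 0.68 in Ov4Carbo (adjusted p = 0.0261) and by 0.64 in Ov4Carbo7 (adjusted p = 0.0276), both under the fold threshold, and the Ov4Carbo value was 0.59 (adjusted p = 0.0653) without replicate 1. At a parental mean of 2.09 RPKM, EVPL was a low gene throughout.

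EPPK1 (ENSG00000261150, chromosome 8), epiplakin, a plakin built only of plakin repeats that binds keratin networks, varied most of all members. The range of its line means, 9.69 log2 units, exceeded that of 99.9% of genes. Parental values were 4.72, 5.15 and 4.95 log2 RPKM, a mean of 30.9 RPKM. Ov4Cis had -5.94, -3.87 and -4.44, near the lowest values of the table. Ov4Carbo had 1.71, 1.03 and 0.76, Ov4Carbo4 had 2.30, 2.28 and 2.54, and Ov4Carbo7 had -2.23, -0.84 and -0.74. No pair of lines overlapped. The limma log2 fold change against the parental line was -9.69 in Ov4Cis (SE 0.49, adjusted p = 2.42e-08), -6.21 in Ov4Carbo7 (adjusted p = 1.23e-06), -3.77 in Ov4Carbo (adjusted p = 1.11e-04) and -2.56 in Ov4Carbo4 (adjusted p = 0.00121). On the log2(RPKM + 1) scale these were -4.93, -4.45, -3.28 and -2.36. The step between Ov4Carbo4 and Ov4Carbo, 1.21 (adjusted p = 0.0622), was the only step in its order that did not pass.

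PERP (ENSG00000112378, chromosome 6) encodes a tetraspan membrane protein of desmosomes and is a known target of p53 and p63. It stood at 4.35, 4.36 and 4.62 log2 RPKM in the parental line and at 4.36, 4.42 and 4.35 in Ov4Cis, which overlapped. Ov4Carbo4 had 4.0, 3.93 and 3.93, and Ov4Carbo7 had 4.99, 4.92 and 5.0. Ov4Carbo was split, with 4.37 in replicate 1 against 3.06 and 3.30. The Ov4Cis difference was -0.07 with an interval of -0.60 to 0.47 (limma adjusted p = 0.867). In Ov4Carbo it was -0.87 (adjusted p = 0.0166) with all replicates and -1.26 (adjusted p = 8.3e-06) without replicate 1, which would count as a fall. Ov4Carbo7 was the highest line, at 0.53 above the parental one (adjusted p = 0.103). With a term for the title series, estimated from that same split, the Ov4Carbo7 difference became -0.66, the opposite direction. The same term took Ov4Carbo4 from -0.49 (adjusted p = 0.135) to -1.68 (adjusted p = 7.64e-05), past both thresholds, and Ov4Cis against Ov4Carbo4 from 0.42 to 1.61 (adjusted p = 5.98e-05).

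The clones were also set against each other and against the population they came from. Ov4Carbo4 had 1 member lower than Ov4Carbo, PKP3, at -1.81 (SE 0.23, limma adjusted p = 8.46e-05), while 6.64% of all genes were lower and 7.58% higher. Without replicate 1 of Ov4Carbo, EPPK1 was also called, higher by 1.48, making 2. The same held without Ov4Cis replicate 1 or 2 or Ov4Carbo7 replicate 1, samples that bear only on the shared spread (1.21 each). Ov4Carbo7 had 3 members lower than Ov4Carbo (EPPK1 at -2.44, PPL at -1.36 and PKP2 at -1.08) and 1 higher (PERP at 1.39), against 5.62% of all genes lower and 7.72% higher. On the log2(RPKM + 1) scale PPL, at -0.88, was under the fold threshold, and DSC2, 0.89 higher, passed it without replicate 3 of Ov4Carbo (1.04). The PKP2 call was lost without replicate 3 of Ov4Carbo (-0.99, adjusted p = 0.0699) and also without replicate 1 (-0.97) or 2 (-1.05) of Ov4Carbo7. With the title series term, 2 members were called, as PKP2 (-1.17, adjusted p = 0.127) and PERP (0.60, adjusted p = 0.0111) no longer passed. Between the clones, all within a title series, Ov4Carbo7 had 3 members lower than Ov4Carbo4 (EPPK1 at -3.65, PPL at -1.79 and PKP2 at -1.73) and 2 higher (PKP3 at 1.46 and PERP at 1.01, or 0.97 on the log2(RPKM + 1) scale), against 9.86% of all genes lower and 11.1% higher. All 10 members passed the adjusted p alone in that comparison, as did 51.1% of genes. Ov4Carbo4 thus had the lower PKP3 and Ov4Carbo7 the lower PPL and EPPK1, and DSP was lower in Ov4Carbo7 by 0.66 (adjusted p = 0.0106), under the fold threshold.

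Against the carboplatin lines, Ov4Cis had the same 6 genes lower in each comparison: DSP, PKP3, JUP, PPL, EVPL and EPPK1. Of all genes, 5.9% were lower and 7.88% higher than in Ov4Carbo, 7.72% lower and 9.12% higher than in Ov4Carbo4, and 7.2% lower and 7.46% higher than in Ov4Carbo7. PKP2 was higher than in Ov4Carbo7, at 1.46 (limma adjusted p = 0.00427), but did not pass with the title series term (1.59, adjusted p = 0.0829). Without replicate 1 of Ov4Carbo, PERP was higher in Ov4Cis than in Ov4Carbo (1.20, against 0.80 with it), and without replicate 3 of Ov4Carbo so was DSC2 (1.01, against 0.86). The EVPL difference was -3.62 against Ov4Carbo, -4.27 against Ov4Carbo4 and -3.58 against Ov4Carbo7, with adjusted p of 1.06e-07, 2.15e-08 and 1.42e-07. The EPPK1 difference from Ov4Carbo7 was -3.48, but -0.47 on the log2(RPKM + 1) scale, as both lines had under 1 RPKM on average. On that scale the PPL difference from Ov4Carbo7 was -0.87, so neither gene passed the fold threshold there. With the title series term the DSP difference from Ov4Carbo7, -1.28, became -0.76 (adjusted p = 0.0795).

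Differences between related genes within a sample compare their corrected log2 RPKM. These pairs were chosen after the values were seen. PKP3 minus PKP2 was -0.72, -1.14 and -1.46 log2 units in the parental line, -6.72, -9.35 and -8.47 in Ov4Cis and -4.37, -4.73 and -4.88 in Ov4Carbo4. It was -2.38, -2.14 and -2.08 in Ov4Carbo, and in Ov4Carbo7, at -1.41, -1.50 and -1.52, it overlapped the parental range. PKP2 was thus more abundant than PKP3 in all 15 samples, by the widest margin in Ov4Cis. DSP exceeded DSG2 in all parental samples (1.89, 1.86 and 2.19), in Ov4Carbo (1.05, 0.62 and 0.53) and in Ov4Carbo4 (0.84, 0.84 and 0.92). It was below DSG2 in Ov4Cis (-1.14, -0.60 and -1.11) and in Ov4Carbo7 (-0.29, -0.13 and -0.13). EVPL was below PPL in the parental line (-1.81, -1.83 and -2.32) and above it in Ov4Carbo4 (0.48, 0.21 and 0.30) and Ov4Carbo7 (1.92, 1.26 and 1.12), with mixed signs in Ov4Cis and Ov4Carbo. JUP minus CTNNB1, the gene of its relative β-catenin, changed from a mean of -0.62 ± 0.11 in the parental line to -2.57 ± 0.46 in Ov4Cis and -1.28 ± 0.25 in Ov4Carbo7 (SD, n = 3 each). It was -0.58 ± 0.32 in Ov4Carbo, a difference of 0.04 from the parental line, and -0.29 ± 0.05 in Ov4Carbo4, higher by 0.34. An exact two-sided permutation test of 3 against 3 cannot go below p = 0.1, and it gave that value for all of these differences of Ov4Cis from the parental line.

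**Figure D3:**
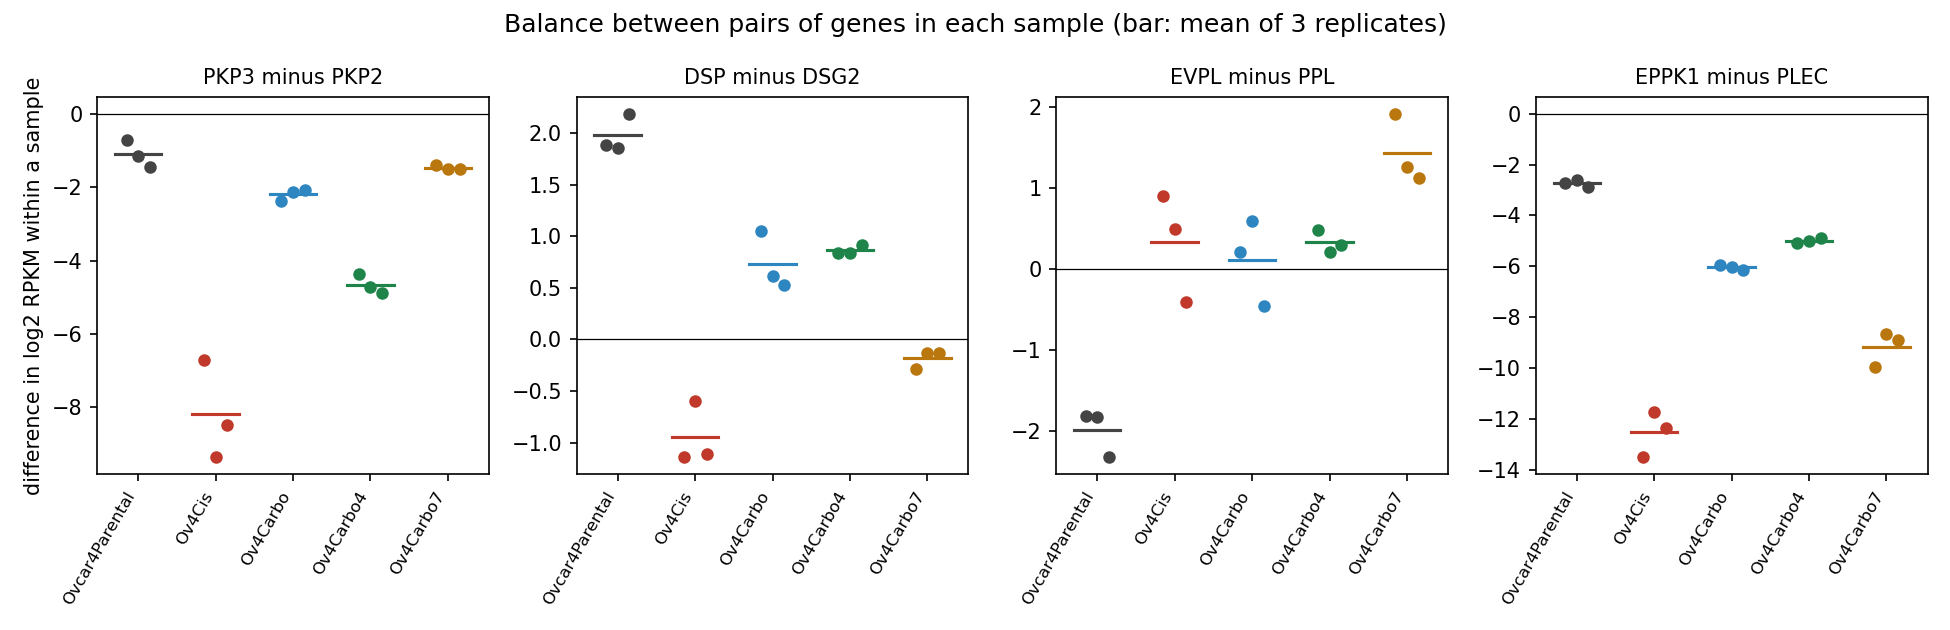
Difference in log2 RPKM between 2 genes of the same sample (vertical axes, with separate ranges), by line; points are replicates and bars are means. DSP minus DSG2 is above 0 in the parental line, Ov4Carbo and Ov4Carbo4 and below 0 in Ov4Cis and Ov4Carbo7.

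Neighbouring genes give the local background of each member; for EPPK1 and PKP3 they are described because these genes had the largest falls. Gene order came from RefSeq. EPPK1 lies beside PLEC, which encodes plectin, another plakin. PLEC stood at 7.68 log2 RPKM in the parental line and 7.77 in Ov4Cis, a difference of 0.09 (limma adjusted p = 0.732), and in Ov4Carbo7 it differed by 0.22. EPPK1 minus PLEC went from -2.74 ± 0.14 in the parental line to -12.52 ± 0.90 in Ov4Cis and -9.16 ± 0.69 in Ov4Carbo7 (SD, n = 3 each). None of the 3 tested genes on either side of EPPK1 was called in any derived line, so EPPK1 was the only called gene of those 7. Beside PKP3, in Ov4Cis, SIGIRR (-4.13, adjusted p = 7.46e-07) and ANO9 (-3.91, adjusted p = 5.94e-08) on one side and IFITM1 (-2.34, adjusted p = 1.51e-04), 3 genes away on the other, also fell, while IFITM3 (0.08) and PTDSS2 (-0.01) did not. SIGIRR fell in all 4 lines by the same thresholds. ANO9 was not called in the carboplatin lines, where it differed by 0.10, 0.30 and -0.83. Over the 54 genes within 3 places of any member, 5 fell and 5 rose in Ov4Cis, while 7.41% of all genes fell and 8.46% rose. Among those 54, B4GALT6, next to DSG2, rose by 2.60 in Ov4Cis (adjusted p = 1.70e-07) while DSG2 did not change by the test. DSC3, desmocollin 3, which lies beside DSC2 in the cadherin cluster of chromosome 18, is described with its family.

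**Figure D4:**
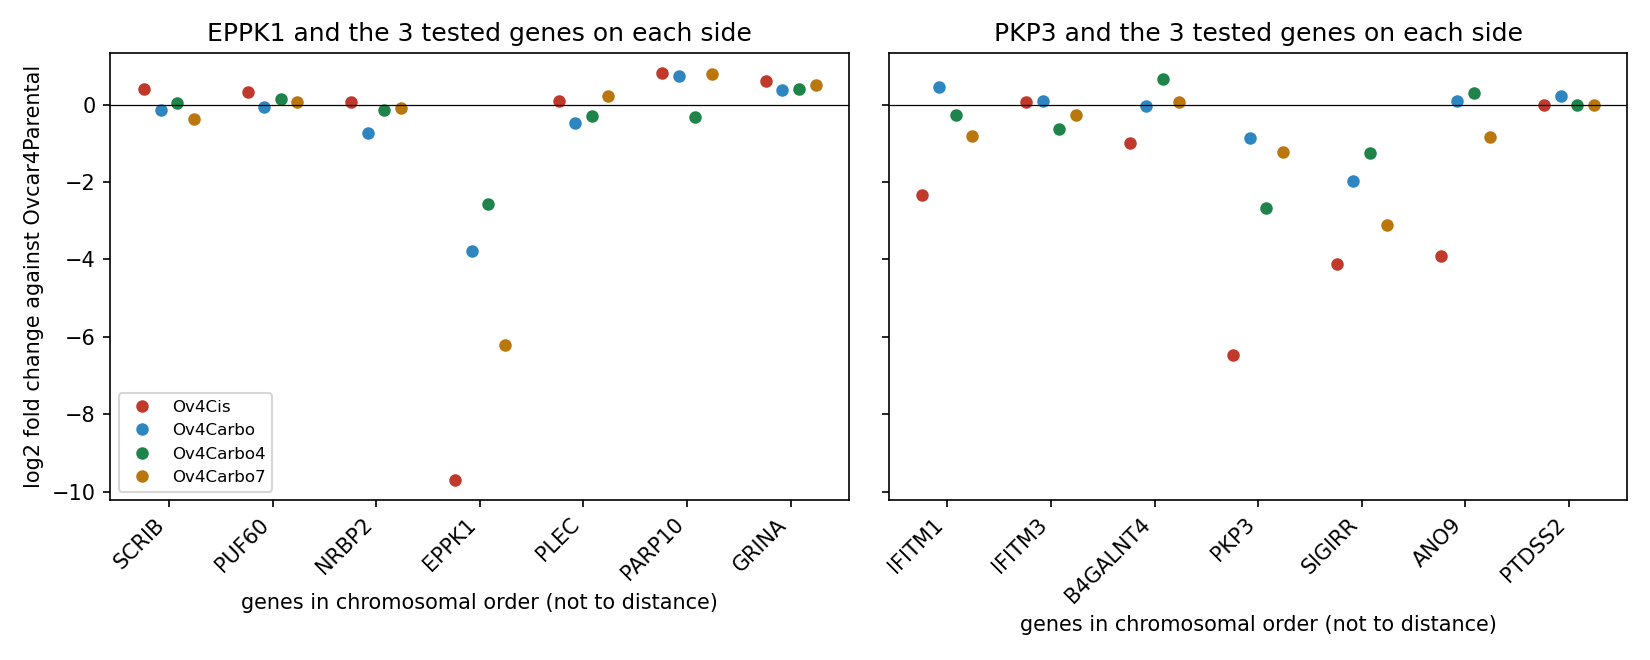
Log2 fold change against the parental line (vertical axis) for EPPK1 and PKP3 and the 3 tested genes on each side, in chromosomal order, not to distance. EPPK1 at -9.69 in Ov4Cis stands among neighbours between -1 and 1, whereas SIGIRR and ANO9 beside PKP3 lie at -4.13 and -3.91.

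Other genes of the junction and its partners were taken from lists. Of 7 further desmosomal genes, DSC3 and PKP4 were in the table, and DSG1, DSG3, DSG4, DSC1 and PKP1 were not analysed here. DSC3 fell in Ov4Carbo (-1.78, limma adjusted p = 0.00180) and Ov4Carbo4 (-1.65, adjusted p = 0.00215) and rose in Ov4Carbo7 (1.66, adjusted p = 0.00186), from a parental level of -1.04 log2 RPKM; in Ov4Cis it differed by -0.35. On the log2(RPKM + 1) scale the first 3 of these were -0.37, -0.36 and 0.77, all under the fold threshold. PKP4 was not called in any line. Of the other plakins, PLEC, DST and MACF1, 0 of 3 were called in any of the 4 lines, with differences between -0.47 and 0.51. Of the 7 plakin genes measured, DSP, PPL, EVPL and EPPK1 were thus the ones that fell in Ov4Cis.

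At the hemidesmosome, the keratin anchor to the basement membrane, ITGB4 fell in Ov4Cis (-2.54, limma adjusted p = 6.62e-07) and ITGA6 rose (1.06, adjusted p = 7.40e-04), and ITGA6 rose in Ov4Carbo4 (1.5). In the adherens junction list 3 of 11 genes fell in each of Ov4Cis, Ov4Carbo and Ov4Carbo4, against 4 in Ov4Carbo7. Each count includes NECTIN4, at -0.10 log2 RPKM in the parental line. Its changes on the log2(RPKM + 1) scale, -0.92 to -0.90, were under the fold threshold. E-cadherin, CDH1, fell in all 4 lines, by a log2 fold change of -8.14 in Ov4Cis, -2.82 in Ov4Carbo7, -1.75 in Ov4Carbo and -1.01 in Ov4Carbo4, the same order of lines as for EPPK1. P-cadherin, CDH3, changed by -5.44, -4.87, -3.03 and -2.67 in that order. N-cadherin, CDH2, rose in Ov4Cis (2.86), Ov4Carbo7 (1.46) and Ov4Carbo4 (1.02). On the log2(RPKM + 1) scale CDH1 and CDH2 in Ov4Carbo4 changed by -0.95 and 0.94, under the fold threshold. So were ITGA6 in Ov4Cis (0.96) and ARVCF in Ov4Carbo7 (-0.76) on that scale. The catenin genes CTNNA1, CTNNB1 and CTNND1 were not called in any of these comparisons.

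Among the intermediate filaments that plakins bind, 10 of 11 genes fell in Ov4Cis and also 10 in Ov4Carbo7, while 9 fell in Ov4Carbo4 and 7 in Ov4Carbo, and 0 rose in any line. Each count includes KRT5 and KRT6A, at -0.79 and -0.44 log2 RPKM in the parental line. On the log2(RPKM + 1) scale their changes lay between -0.79 and -0.52, under the fold threshold. Median log2 fold changes were -3.99 in Ov4Cis, -2.80 in Ov4Carbo7, -1.93 in Ov4Carbo4 and -2.21 in Ov4Carbo. The shares of all genes that fell were 7.41%, 7.75%, 7.7% and 6.93% in that order. The log2 fold changes of KRT7, KRT17 and KRT19 in Ov4Cis were -8.85, -9.10 and -8.65. KRT8 and KRT18, the keratin pair of simple epithelia, changed there by -2.58 and -1.20, and stood at 4.50 and 6.32 log2 RPKM. VIM, the mesenchymal filament vimentin, was not called in any line and was 0.74 higher in Ov4Cis (limma adjusted p = 0.0145). Of 16 cornified envelope genes, where PPL and EVPL act in skin, 7 were in the table. In Ov4Cis 1 fell and 2 rose, among them TGM5 (2.43, adjusted p = 0.0155), which also rose in Ov4Carbo7 (4.91), where CNFN fell (-1.06). Of all genes, 7.41% fell and 8.46% rose in Ov4Cis. On the log2(RPKM + 1) scale TGM5 changed by 0.72 in Ov4Cis and 2.38 in Ov4Carbo7, and CNFN by -0.60, so that only TGM5 in Ov4Carbo7 was past a change of 1.

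Of 18 transcription factors known to act on epithelial junction genes, 13 were in the table. In Ov4Cis 7 fell and 2 rose, in Ov4Carbo 5 fell and 2 rose, in Ov4Carbo4 3 and 2, and in Ov4Carbo7 5 and 3. Of all genes, 7.41% fell and 8.46% rose in Ov4Cis, and 6.93% and 5.76% did so in Ov4Carbo. The shares were 7.7% and 7.43% in Ov4Carbo4, and 7.75% and 9.26% in Ov4Carbo7. The 2 that rose in Ov4Carbo and in Ov4Carbo4 were TWIST1 and TWIST2, both low. Mean log2 RPKM in the parental line, Ov4Carbo and Ov4Carbo4 was -5.85, -0.98 and -0.33 for TWIST1, and -1.21, -0.13 and 0.06 for TWIST2. GRHL2, a grainyhead activator of junction genes, had log2 fold changes of -9.52 in Ov4Cis, -9.95 in Ov4Carbo7, -6.07 in Ov4Carbo and -3.90 in Ov4Carbo4 (largest limma adjusted p = 0.00101). OVOL1, another epithelial regulator, changed by -7.17, -6.73, -4.52 and -4.55 in the same lines, and OVOL2 fell in Ov4Cis (-4.23), Ov4Carbo7 (-2.32) and Ov4Carbo (-1.30). Both were low in the parental line, with means of 1.42 and 1.14 log2 RPKM, and OVOL2 had a mean of -0.17 in Ov4Carbo. ZEB1, a repressor that binds E-boxes, rose by 1.68 in Ov4Cis (adjusted p = 7.56e-06) and by 1.35 in Ov4Carbo7 (adjusted p = 4.65e-05). It differed by 0.28 and 0.46 in Ov4Carbo and Ov4Carbo4. SNAI1, the other repressor named with the E-box, was not called in Ov4Cis (0.05, limma adjusted p = 0.860). Its mean was 3.08 log2 RPKM in the parental line and 3.14 in Ov4Cis. The carboplatin lines had 2.66 (Ov4Carbo), 3.36 (Ov4Carbo4) and 2.59 (Ov4Carbo7). TWIST1 also rose in Ov4Cis (6.18, limma adjusted p = 2.25e-09), to a mean of 0.33, and its Ov4Carbo7 mean was 0.39. On the log2(RPKM + 1) scale the GRHL2 changes were -3.53 in Ov4Cis, -3.54 in Ov4Carbo7, -3.25 in Ov4Carbo and -2.77 in Ov4Carbo4.

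**Figure D5:**
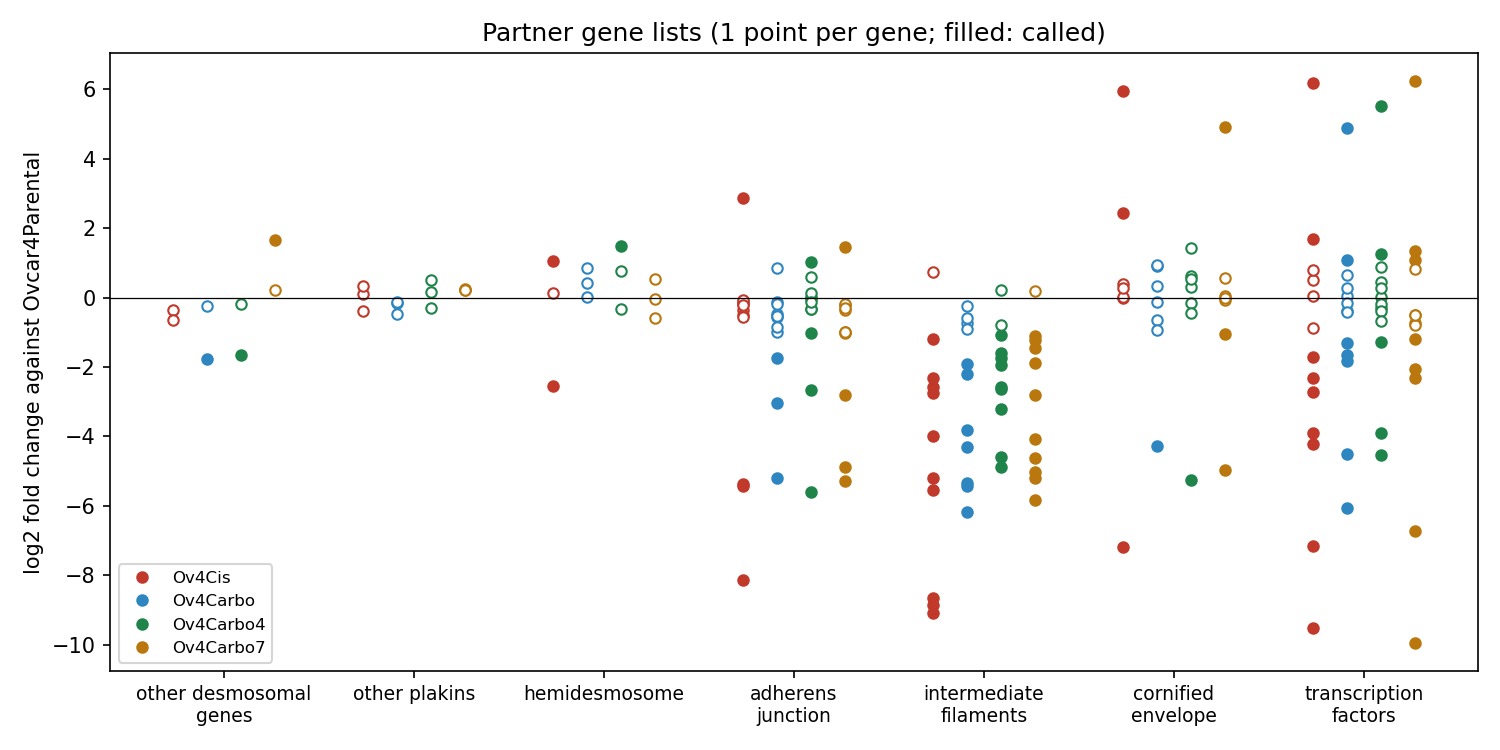
Log2 fold change against the parental line (vertical axis) of each gene of 7 partner lists, 1 point per gene and line; filled points passed both thresholds. In the intermediate filament list 10 of 11 points of Ov4Cis lie below 0 and are filled, and all 12 points of the other plakins are open and near 0.

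The genes most like DSP, PKP3 and PPL were sought among 13271 others with a mean log2 RPKM of at least 1 in some line, by the root-mean-square difference of centred log2 RPKM over the 15 samples, which come from only 5 lines. Nearest to DSP were KRT8P32 (0.20), KRT8P10 (0.28) and SH2D3A (0.31). The first of these are KRT8 pseudogenes, whose reads cannot be told from those of KRT8 with certainty. Nearest to PKP3 were MAL2 (0.42), CDCP1 (0.43) and LCP1 (0.53), and nearest to PPL were LAD1 (0.40), DLX3 (0.44) and EPCAM (0.45). Among the members, JUP ranked 28 in likeness to DSP (0.43), and the other members ranked between 5912 (PPL) and 13077 (EPPK1), PKP3 and EVPL at 12592 and 9782. For PKP3 the nearest member was PPL, at rank 39 (1.21), and the farthest was PKP2, at rank 12419. For PPL the nearest was DSP, at rank 64 (0.97), and the farthest was DSC2, at rank 12110. The measure counts the size of a change as well as its direction, so genes that fell by different amounts also lie apart.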

How the data were processed

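The authors deposited a table of log2 RPKM values made by cqn (conditional quantile normalization, a method that corrects for GC content and length), per the name of the table, with 16604 genes, 15 samples and 0 missing values. The name also mentions a threshold whose rule is not given in the sources used here. BWA 0.7.15-r1140, HTSeq and the builds hg19 and GRCh37 are named in the submitters' processing notes, without their roles; BWA is not a spliced aligner, and the effect on gene values was not tested. Base 2 was checked: 2 to the value, times exonic kilobases (GENCODE v29), summed to 1.56 to 1.65 times the total expected per sample, against 9.03 to 9.97 times for base e. Ranked values in the upper part were alike in all samples, so total RNA differences are not measurable. No read totals are in the table, so counting error is not given. Symbols matched 16448 genes.

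One coefficient per line was fitted to all genes and samples with limma 3.58.1 (R 4.3.3, eBayes, two-sided), with Benjamini-Hochberg adjustment over all genes in each of 10 contrasts. The model was tested on simulated data. Python 3.11.15, pandas 2.3.3 and matplotlib 3.10.9 made tables and figures. Replicates are described as biological. The limma tests set line means against the spread between replicates of 1 population or clone per line. They do not cover variation between independent selections or clones. Partner genes named were the up to 4 largest called changes per list and comparison with a line mean of at least log2 RPKM 1. KRT8, KRT18, KRT5, KRT6A, NECTIN4, VIM, PLEC, DST, MACF1, DSC3, PKP4, TWIST1, TWIST2, SNAI1, the catenins and the neighbours were added after their values were seen. The same holds for ZEB1 in Ov4Cis, Ov4Carbo and Ov4Carbo4. The members and lists were chosen with earlier results of these data known. Alternatives were a variance trend, median centring, quantile normalization, a filter at mean log2 RPKM 1, pseudocounts of 1 and 0.1, only the lines compared, a replicate block, a title series term, other thresholds, and leaving out each replicate.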

Additional observations from a re-analysis of the deposited data

Results flagged for a closer look

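EVPL stood out because it moved in opposite directions in 2 derived lines: it fell by 2.94 in Ov4Cis and rose by 1.33 in Ov4Carbo4 against the shared parental samples. The direct comparison of Ov4Cis with Ov4Carbo4 gave a log2 fold change of -4.27 (limma adjusted p = 2.15e-08), with all 3 values of Ov4Cis below all 3 of Ov4Carbo4. With a term for the title series the rise in Ov4Carbo4 was 1.06 (limma adjusted p = 0.0586) and did not pass. On the log2(RPKM + 1) scale the fall, the rise and the direct comparison were -1.27, 1.01 and -2.28.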

How the results depend on the processing

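The 6 falls in Ov4Cis were called under all alternatives that tested the 6 genes. A filter at a mean log2 RPKM of 1 removed PPL, EPPK1 and EVPL, leaving 7 members, of which against the parental line 3 were called in Ov4Cis, 2 in Ov4Carbo7 and 1 each in Ov4Carbo and Ov4Carbo4; 2 were called in Ov4Carbo7 against Ov4Carbo, 3 in Ov4Carbo7 against Ov4Carbo4, and 3, 3 and 4 in Ov4Cis against Ov4Carbo, Ov4Carbo4 and Ov4Carbo7. Under that filter, 851 genes in all were called in Ov4Carbo7 against Ov4Carbo and 1645 between the clones. In Ov4Cis against Ov4Carbo, Ov4Carbo4 and Ov4Carbo7 they numbered 840, 1196 and 1041. With no limit on the fold, 7 members were called in Ov4Carbo, 5 in Ov4Carbo4 and 8 in Ov4Carbo7 against the parental line, 4 in Ov4Carbo4 against Ov4Carbo and 10 between the clones. Of all 16604 genes, 5638, 6589, 7071, 7015 and 8484 were called in the same order. All-gene calls against the parental line were 988, 730, 971 and 1134 under the filter on the mean, against 2635, 2106, 2513 and 2824 without it, in the order Ov4Cis, Ov4Carbo, Ov4Carbo4 and Ov4Carbo7; with log2(RPKM + 1) they were 1258, 790, 1053 and 1294. For Ov4Carbo4 against Ov4Carbo, 2 members were called with a variance trend (2358 of all genes), with log2(RPKM + 0.1) (2026) and with only the lines compared (2078). The count was 1 to 2 when single replicates were left out. A title series term gave 5 calls for Ov4Carbo4 against the parental line (2972 of all genes) and 2 for Ov4Carbo7 against Ov4Carbo (1560 of all genes). It reversed JUP in Ov4Carbo4 (0.04) and PERP in Ov4Carbo7 (-0.66) against the parental line, PERP in Ov4Carbo4 against Ov4Carbo (-0.41) and PERP in Ov4Cis against Ov4Carbo7 (0.60). The cause was not tested.

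Leaving out single replicates turned the sign of differences that were not called: against the parental line, PERP in Ov4Cis (-0.11 to 0.02), DSG2 (-0.09 to 0.04) and DSC2 (-0.26 to 0.12) in Ov4Carbo, and DSC2 (-0.08 to 0.30) and JUP (-0.03 to 0.02) in Ov4Carbo4; also EVPL in Ov4Carbo7 against Ov4Carbo (-0.23 to 0.06), PKP2 in Ov4Cis against Ov4Carbo4 (-0.56 to 0.22) and DSC2 in Ov4Cis against Ov4Carbo7 (-0.20 to 0.06). Same-numbered replicates were not treated as pairs in the main fits. Of 30 correlations of their deviations, 10 exceeded 0.1 (range -0.39 to 0.44), and 4 of 15 samples correlated best with their own number. These mixed values do not settle whether same-numbered samples were handled together. With the number as a replicate block the counts of members called were unchanged in all 10 comparisons, for example 6 in Ov4Cis. Of 2370 recomputed fold changes, 2314 kept direction and call, 25 gained the call, 13 lost it and 18 turned sign. Part of this agreement was fixed in advance. A variance trend, the filter on the mean, a replicate block or fitting only the lines compared leaves each fold change as it was. So does leaving out a sample of a line outside the comparison. In such settings only the call could change. Sample medians and upper ranked values were already alike, so median centring and quantile normalization could change little there.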
